A study of Homo sapiens with 4 samples.

Results

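The genes described here are 32 members of the ATF4 and endoplasmic reticulum (ER) stress programmes, taken by gene name from a table of 26733 genes. An ATF4 arm holds 16 of them and an XBP1/ATF6 arm the other 16, and all 32 names were found. They were read in Jurkat cells, an established line of human T-cell acute lymphoblastic leukaemia, grown for 24 h with GNE987 or left untreated, with 2 libraries of polyadenylated RNA in each group. GNE987 is a bifunctional degrader: one end binds BET bromodomain proteins and the other recruits the VHL ubiquitin ligase, so that the bound protein is destroyed. The labelled dose is 25 nmol; no volume is stated, and whether untreated cells received solvent is not stated either. Each library is a bulk sample of 1 cell line, in which fewer cells of a type and less RNA per cell cannot be told apart.

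Cells answer stress on protein synthesis along connected routes. Kinases that sense unfolded ER proteins, amino acid shortage, haem shortage or viral RNA phosphorylate the translation factor eIF2, which slows translation in general and favours translation of the ATF4 mRNA. ATF4 then switches on genes for amino acid import, serine and asparagine synthesis, redox control and, with its partner DDIT3, cell death. In the ER membrane, the sensor encoded by ERN1 splices the XBP1 mRNA, while ATF6 is cut to release a transcription factor; both raise chaperones, folding enzymes and the machinery that removes misfolded proteins. T cells, including leukaemic ones, express most of these genes at a basal level. The messages measured here show neither eIF2 phosphorylation, nor XBP1 splicing, nor cleavage of ATF6.

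The 4 libraries held between 16041022 and 18938465 counts. A floor of 3 counts equals 0.135 to 0.217 CPM, the unit of expression used below (counts scaled to a common library total, with TMM factors that set libraries level on the bulk of their genes). Untreated replicate 2 stood between untreated replicate 1 and the GNE987 libraries. Over the 4843 tested genes at least 2-fold higher with GNE987 than in untreated replicate 1, it lay a median of 19.6% of the way from that library to the GNE987 mean (quartiles 14.4% and 24.7%). Over the 4855 genes at least 2-fold lower the median was 20.4% (quartiles 13.1% and 27.7%). For the 14 tested members at least 2-fold higher the median was 20.3%, while the 2 members at least 2-fold lower, PSPH and TRIB3, had positions of 0.89% and 5.01%. All 14 T-lineage markers had counts in every library, with a summed level of 3755 to 3904 CPM untreated and 2507 to 2642 CPM with GNE987; 10 fell and CD7 rose. Of the markers of other lineages, 8 myeloid genes summed to 14.1 and 42.9 CPM untreated and to 155 and 159 CPM with GNE987. With GNE987 the sum was mostly MPO, ITGAM and CD14, of which CD14 rose while MPO and ITGAM were not called higher. In untreated replicate 1 nearly all of the sum was S100A9, at 13.3 CPM. S100A9 had 12.8 CPM in untreated replicate 2 and 13.3 and 11.8 CPM with GNE987, and was not called in either direction. ELANE was at 0 in both untreated libraries. Plasma cell markers, the type best known for a large ER, summed to 136 and 160.1 CPM untreated and to 44.1 and 45.6 CPM with GNE987. Nearly all of that was MZB1, and TNFRSF17 was at 0 in both untreated libraries. B-lineage markers summed to 41.6 and 52.1 CPM untreated and to 98.8 and 108 CPM with GNE987, nearly all of it CD79A, with PAX5 at 0 in untreated replicate 1 and never above 0.197 CPM. Erythroid, epithelial and fibroblast markers each summed to at most 9.19 CPM in any library. The part of these genes in the results below was not tested.

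The short DNA elements through which these programmes act can be read in the promoters of several members. RefSeq windows on GRCh38.p14, from 250 bases before to 50 bases after a transcription start, were found for 28 members, 13 of the ATF4 arm and 15 of the XBP1/ATF6 arm. The element bound by ATF4 with a C/EBP partner, abbreviated CARE, was searched as TGATGNAA on both strands. It lay in windows of ASNS and CHAC1 in the ATF4 arm and of HERPUD1 in the XBP1/ATF6 arm. Over the whole set it lay in 3.62% of all 35116 windows and 4.46% of 27305 symbols, some of which have several windows. The ER stress element ERSE, a CCAAT box and a CCACG box held 9 bases apart, lay in 5 members. It lay in 0.0769% of all windows and 0.0916% of symbols. ERSE-II, with ATTGG and CCACG held 1 base apart, lay in 3 members, in 0.0541% of windows and in 0.0696% of symbols. The stretches below show these elements in capitals, 5′ to 3′ on the strand of the gene; stretches that lie in an annotated first exon are kept to 30 bases.
ASNS: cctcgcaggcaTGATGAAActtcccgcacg
CHAC1: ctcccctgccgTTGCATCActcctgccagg
HERPUD1: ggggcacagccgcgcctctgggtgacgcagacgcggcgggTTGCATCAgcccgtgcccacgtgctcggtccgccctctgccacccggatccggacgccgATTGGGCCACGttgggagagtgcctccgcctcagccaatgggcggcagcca
HYOU1: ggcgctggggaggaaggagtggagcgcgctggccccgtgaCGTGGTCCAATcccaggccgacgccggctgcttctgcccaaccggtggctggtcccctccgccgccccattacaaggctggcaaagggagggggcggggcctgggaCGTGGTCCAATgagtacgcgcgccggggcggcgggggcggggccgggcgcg
SDF2L1: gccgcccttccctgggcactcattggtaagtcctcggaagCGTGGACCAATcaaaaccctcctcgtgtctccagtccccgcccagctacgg
XBP1: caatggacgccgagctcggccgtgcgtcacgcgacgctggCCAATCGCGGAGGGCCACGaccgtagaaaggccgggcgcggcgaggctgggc

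These stretches are chr7:97872458-97872487 (minus strand) for ASNS and chr15:40953251-40953280 (plus) for CHAC1. HERPUD1 is read from chr16:56931926-56932075 (plus), HYOU1 from chr11:119057234-119057430 (minus), SDF2L1 from chr22:21642074-21642164 (plus) and XBP1 from chr22:28800570-28800661 (minus). HERPUD1 is shown because its window held both a CARE, in reverse, and an ERSE-II, and HYOU1 because it held ERSE-II at 2 places. SDF2L1 and XBP1 are shown because they carried such an element and were not called higher, as described below. The other ERSE members were CALR, CANX, CRELD2 and PDIA6. The ATF6 and XBP1 element UPRE, searched as TGACGTGG, lay in HYOU1, where it overlaps the upstream ERSE-II. It lay in 0.729% of windows and 0.927% of symbols. The palindromic cyclic AMP element TGACGTCA lay in PPP1R15A, in 1.85% of windows and in 2.25% of symbols. The CCACG box, which is also contained in the longer ER elements, was common: 8 of 13 ATF4 arm members, 13 of 15 XBP1/ATF6 arm members and 42.1% of all 27305 symbols had it in a window. A match describes letters in a window and no binding was measured.

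**Figure D1:**
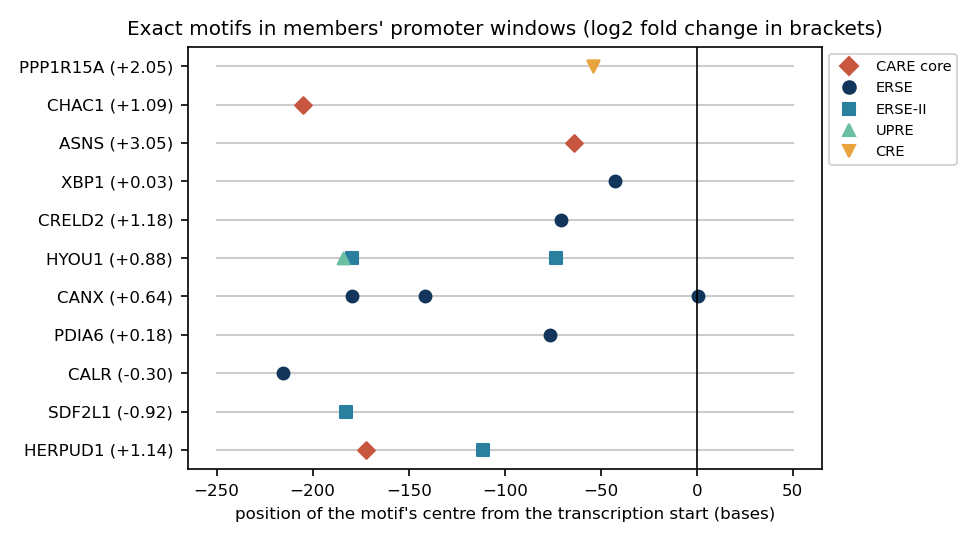
Positions of exact motif matches in the promoter windows of 11 members. The horizontal axis is the distance of the motif's centre from the transcription start in bases, symbols stand for motifs, and numbers beside the names are log2 fold changes of GNE987 over untreated. CARE lay at -64 in ASNS, while SDF2L1 and HERPUD1, which both hold ERSE-II, changed by -0.92 and 1.14.

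The contrast of GNE987 with untreated cells asks how the transcripts of these programmes stood after a day with the degrader. Of the 15 ATF4 arm members that passed the filter on low counts, 8 rose, 5 fell and 2 did not pass an adjusted p of 0.05. In the XBP1/ATF6 arm all 16 members were tested, of which 11 rose, 1 fell and 4 did not pass. The background was high: 34.4% of 15910 tested genes rose and 37.2% fell. The median log2 fold change was 0.67 in the ATF4 arm and 0.78 in the XBP1/ATF6 arm, against -0.03 for all tested genes. The medians lay further apart under other filters, at 0.16 and 0.64 with no filter and 0.47 and 0.95 at a filter of 10 CPM. The median of all tested genes was 0.19 and -0.05 in these settings, so with no filter the ATF4 arm lay below it. The ATF4 arm then held 16 and 14 tested members. The arms had 5 falls and 1 fall, a difference that was not tested. ALDH1L2, a mitochondrial folate enzyme, had 0 and 1 counts with GNE987 and 4 and 0 untreated, so it was the member left untested. Groups overlapped in XBP1, ATF6 and ALDH1L2 only; the plot of levels in the 4 libraries shows the tested members. The share over all tested genes is not given, so a lack of overlap is not read as particular to these members.

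**Figure D2:**
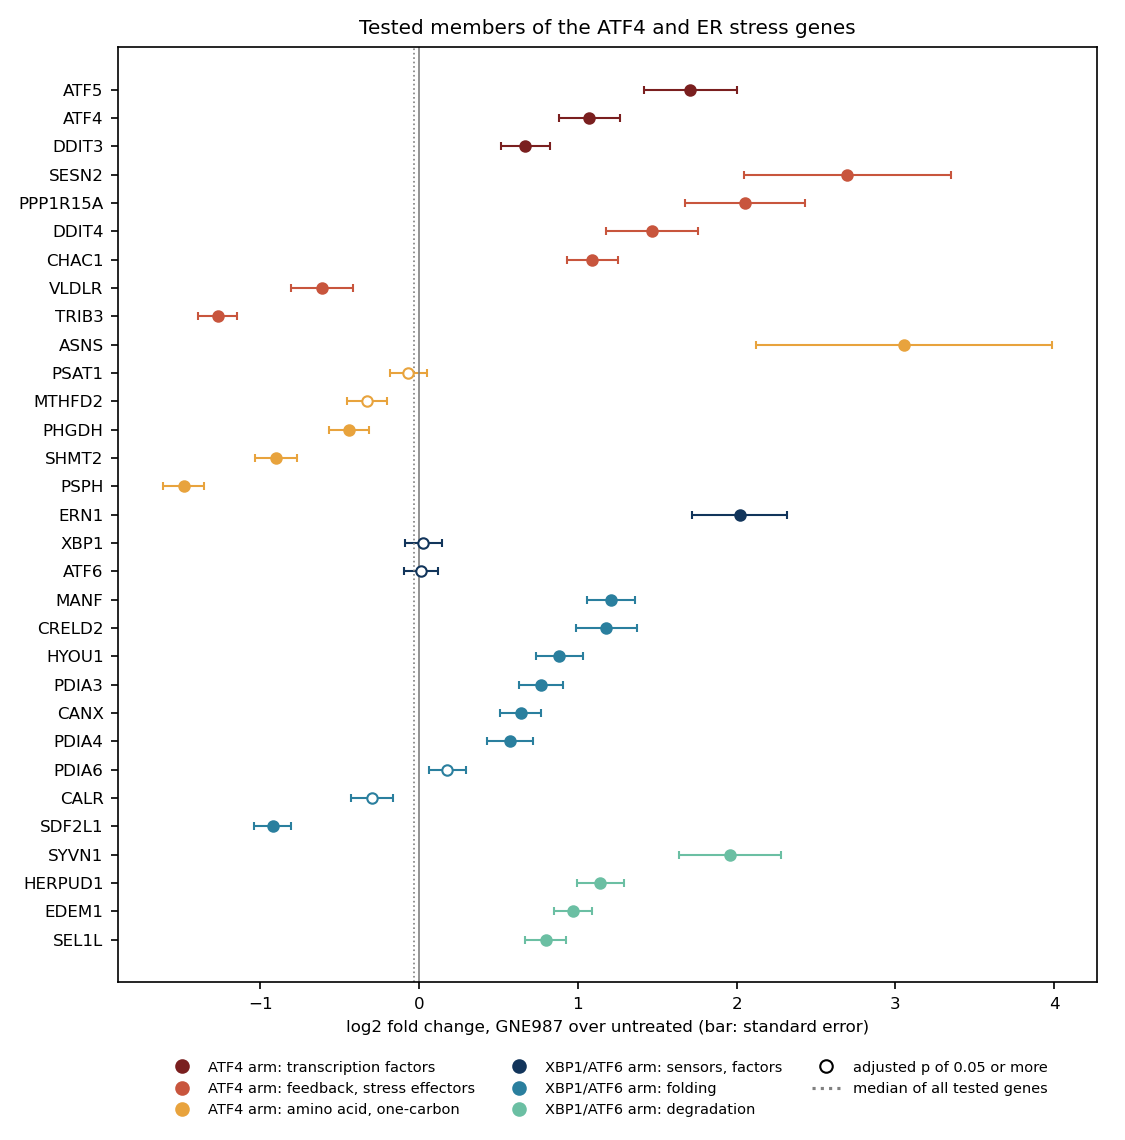
Log2 fold change of GNE987 over untreated for the 31 tested members, with the standard error as a bar. Colours give the role, open circles an adjusted p of 0.05 or more and the dotted line the median of all tested genes (-0.03). ATF4 arm members spread from -1.48 for PSPH to 3.05 for ASNS, and XBP1/ATF6 arm members from -0.92 for SDF2L1 to 2.02 for ERN1.

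**Figure D3:**
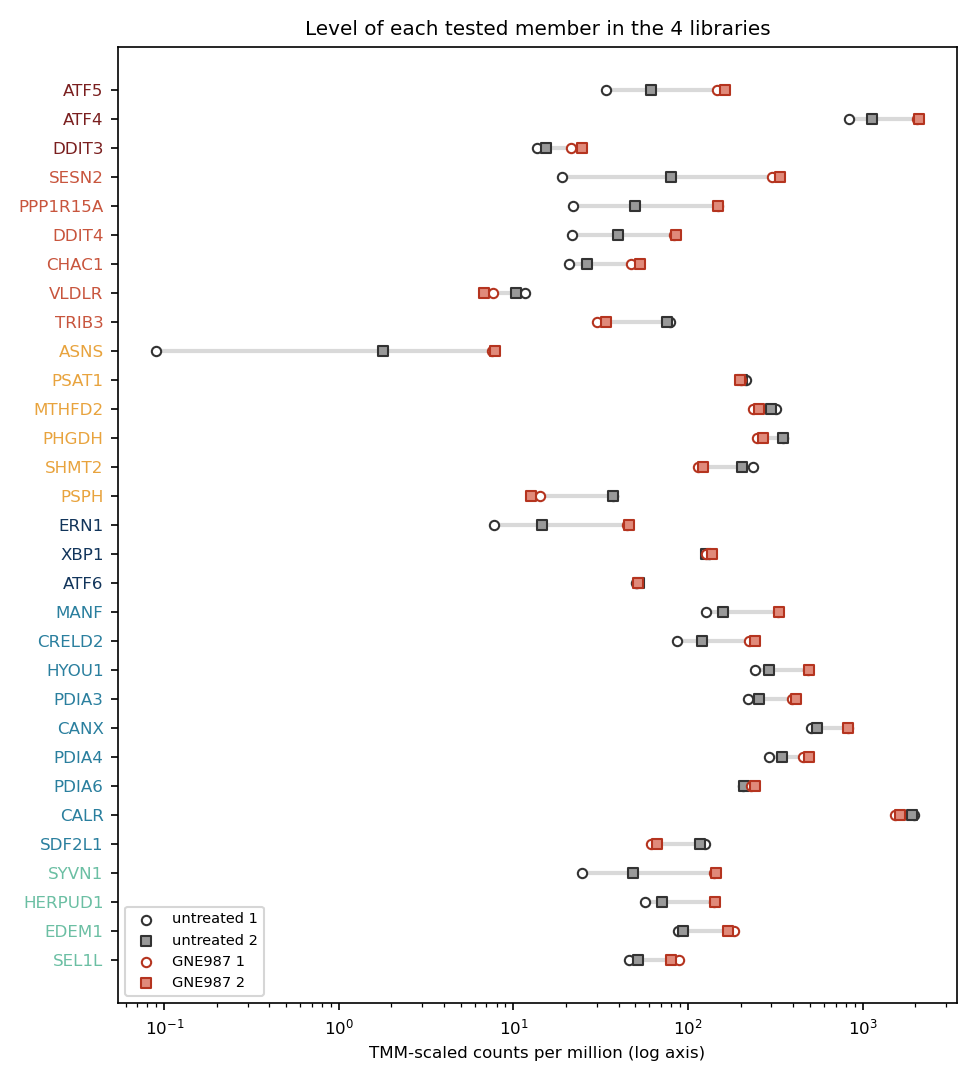
TMM-scaled CPM of each tested member in the 4 libraries, on a log axis. Circles are replicate 1 and squares replicate 2, dark for untreated and red for GNE987. In ATF5, SESN2, ASNS, ERN1 and SYVN1 untreated replicate 2 (square) sits between untreated replicate 1 and the GNE987 pair.

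The transcription factors at the head of the ATF4 arm all rose, 3 of 3, beside 34.4% of all tested genes. ATF4 (ENSG00000128272, chromosome 22, 39519695 to 39522685 on GRCh38) had 2039 and 2102 CPM with GNE987 and 831 and 1137 CPM untreated. Both treated libraries lay above both untreated ones, a 2.10-fold rise of the means (log2 fold change 1.07 ± 0.19 SE, adjusted p = 0.00514; edgeR quasi-likelihood test, as for all adjusted p-values below). Per length, ATF4 was the most abundant message of its arm in both groups, at a mean of 386 FPKM untreated and 814 FPKM with GNE987. ATF5, a related factor that is itself an ATF4 target, had 147 and 163 CPM with GNE987 and 33.7 and 61.3 CPM untreated. The groups were apart, and the change was 1.71 ± 0.29 (adjusted p = 0.00458), or 2.21 without untreated replicate 2. DDIT3, the pro-death factor also called CHOP, had 21.3 and 24.8 CPM with GNE987 and 13.7 and 15.3 CPM untreated. Its rise of 0.67 ± 0.15 (adjusted p = 0.0119) was the smallest of the group. The libraries do not record strand, and 39.6% of the exonic bases of DDIT3 and 23.7% of those of ATF5 overlap other genes. DDIT3 did not pass without GNE987 replicate 1 (adjusted p = 0.0537), without GNE987 replicate 2 (0.114) or with library size alone (0.163).

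Feedback genes and stress effectors moved both ways, with 4 of 6 rising and 2 falling, beside 34.4% and 37.2% of all tested genes. SESN2, a leucine sensor that restrains mTORC1, rose most. It lies on chromosome 1 from 28259527 to 28282491 and had 304 and 337 CPM with GNE987, but 18.9 and 80.0 CPM in the untreated libraries. Both untreated libraries were far below the treated ones and they differed widely from each other. The log2 fold change was 2.70 ± 0.65 (adjusted p = 0.0142), which became 4.09 without untreated replicate 2 and 1.94 without untreated replicate 1. PPP1R15A, the phosphatase subunit GADD34 that reverses eIF2 phosphorylation, had 149 and 148 CPM with GNE987 and 22.0 and 49.7 CPM untreated. It rose by 2.05 ± 0.38 (adjusted p = 0.00572), and by 2.76 without untreated replicate 2. DDIT4, another inhibitor of mTORC1 signalling, had 83.2 and 85.8 CPM against 21.5 and 39.6 CPM, and again the groups did not overlap (1.47 ± 0.29, adjusted p = 0.0072; 1.98 without untreated replicate 2). CHAC1, which degrades glutathione and whose CARE is printed above, had 47.2 and 53.0 CPM against 20.8 and 26.3 CPM (1.09 ± 0.16, adjusted p = 0.00295). SESN2 did not pass without GNE987 replicate 1 (adjusted p = 0.0626), without GNE987 replicate 2 (0.0705) or with robust estimation (0.0754), and DDIT4 did not pass without GNE987 replicate 2 (0.0536). An antisense gene covers 41.2% of the exonic bases of DDIT4.

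TRIB3, a pseudokinase induced by ATF4 and DDIT3 that feeds back on ATF4, went the other way. It lies on chromosome 20 from 362835 to 397559 and had 30.1 and 34.1 CPM with GNE987 and 78.5 and 76.2 CPM untreated. Every treated library was below every untreated one, and replicates lay close together (-1.27 ± 0.12, adjusted p = 0.000792). TRIB3 kept this direction without untreated replicate 2 (-1.28) and without untreated replicate 1 (-1.31). VLDLR, a lipoprotein receptor, had 7.68 and 6.74 CPM with GNE987 and 11.7 and 10.3 CPM untreated. Its fall of -0.61 ± 0.20 (adjusted p = 0.0353) was not called under 7 alternatives, among them without GNE987 replicate 1 (adjusted p = 0.097), without GNE987 replicate 2 (0.162) and DESeq2 (0.0973).

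The amino acid and folate enzymes held most of the falls of the ATF4 arm. Of 6 tested genes, ASNS rose and 3 fell, with a median log2 fold change of -0.38. Over all tested genes 34.4% rose and 37.2% fell, with a median of -0.03. ASNS, asparagine synthetase (chromosome 7, 97852118 to 97872542), had 114 and 108 counts with GNE987 and 2 and 36 counts untreated. This is 7.48 and 7.83 CPM against 0.0898 and 1.78 CPM, so the untreated libraries differed from each other more than the treated ones did. The level of untreated replicate 1 was below the floor of 3 counts, and the treated level was 85.2 times as high, with an exact Poisson 95% interval of 23.3 to 707.6 that covers counting error only. The fitted log2 fold change over all libraries was 3.05 ± 0.93 (adjusted p = 0.0302). It was 2.04 without untreated replicate 1 and 6.31 without untreated replicate 2, where a fitted value on 2 counts depends on the prior count. ASNS did not pass without GNE987 replicate 1 (adjusted p = 0.133), without GNE987 replicate 2 (0.139), in DESeq2 (0.0875) or with robust estimation (0.0793), and 44.6% of its exonic bases overlap AC079781.5. Even with GNE987 it stayed the least abundant enzyme tested per length, at a mean of 1.70 FPKM.

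Serine is made from a glycolysis intermediate by PHGDH, PSAT1 and PSPH in turn, and these steps did not move alike. PHGDH, the first step, had 248 and 269 CPM with GNE987 and 352 and 351 CPM untreated, a fall of -0.44 ± 0.12 (adjusted p = 0.0237). PSAT1, the aminotransferase of the middle step, had 200.2 and 199 CPM against 215 and 203 CPM (-0.07 ± 0.12, adjusted p = 0.629). PSPH, the phosphatase that releases serine (chromosome 7, 56011051 to 56051604), had 14.1 and 12.5 CPM against 37.4 and 37.2 CPM. Treated PSPH libraries were far below the untreated pair, which agreed closely, and its change of -1.48 ± 0.13 (adjusted p = 0.000653) was the deepest fall among the members. SHMT2, which turns serine into glycine and a folate carbon unit in mitochondria, had 114 and 122 CPM with GNE987 and 235 and 204 CPM untreated (-0.90 ± 0.13, adjusted p = 0.00302). MTHFD2, the next mitochondrial folate enzyme, had 237 and 254 CPM against 317 and 299 CPM (-0.33 ± 0.13, adjusted p = 0.0587). Exons of other genes cover 33.2% of its exonic bases. PHGDH did not pass without GNE987 replicate 1 (adjusted p = 0.207), without GNE987 replicate 2 (0.127), with upper-quartile scaling (0.146) or at a filter of 10 CPM (0.0874), and SHMT2 did not pass without GNE987 replicate 1 (0.0528). MTHFD2 passed as lower without untreated replicate 1 (0.000803), without untreated replicate 2 (0.000406), with no filter (0.0265) and with library size alone (0.00389), and PSAT1 with library size alone (log2 fold change -0.44, adjusted p = 0.0263).

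In the XBP1/ATF6 arm, the sensors and factors split. ERN1, which encodes the sensor IRE1 alpha (chromosome 17, 64039142 to 64130819), had 44.6 and 45.7 CPM with GNE987 and 7.77 and 14.5 CPM untreated. It rose 4.06-fold (2.02 ± 0.30, adjusted p = 0.003), with no overlap between the groups, and the log2 fold change was 2.55 without untreated replicate 2. XBP1, the factor whose mRNA that sensor splices (chromosome 22, 28794555 to 28800597), had 127 and 137 CPM with GNE987 and 132 and 127 CPM untreated. The groups overlapped, and the difference was 0.03 ± 0.12 (adjusted p = 0.845); counts per gene do not separate spliced from unspliced XBP1. ATF6 had 50.9 and 52.0 CPM with GNE987 and 50.2 and 52.0 CPM untreated, also overlapping (0.01 ± 0.11, adjusted p = 0.939). With library size alone, a scaling that moved the median of all tested genes from -0.03 to -0.41, ATF6 passed as lower (-0.36, adjusted p = 0.0459) and XBP1 stood at -0.35 without passing. XBP1 is an established target of ATF6, and its window holds the ERSE printed above.

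All 4 degradation genes among the members rose, with a median of 1.06, beside 34.4% rising and a median of -0.03 over all tested genes. The other ER genes read below, further degradation genes among them, moved both ways (23 rose and 30 fell). SYVN1, the HRD1 ubiquitin ligase of the ER membrane (chromosome 11, 65121780 to 65134533), had 140.3 and 144 CPM with GNE987 and 24.6 and 48.7 CPM untreated (1.96 ± 0.32, adjusted p = 0.00407; 2.54 without untreated replicate 2). SEL1L, which holds that ligase in its complex, had 89.2 and 80.2 CPM against 45.7 and 51.8 CPM (0.80 ± 0.13, adjusted p = 0.00381). Both partners were higher in every treated library, by different amounts. HERPUD1, an adaptor of the same complex (chromosome 16, 56932048 to 56944863), had 140.0 and 143 CPM against 57.1 and 71.4 CPM (1.14 ± 0.15, adjusted p = 0.00204). EDEM1, a mannosidase-like protein that marks glycoproteins for removal, had 184 and 169 CPM against 87.4 and 93.2 CPM (0.97 ± 0.12, adjusted p = 0.00186). None of the 4 overlapped between groups, though the share of all tested genes without overlap is not given. SEL1L alone lost its call with a library left out, and did so without GNE987 replicate 1. Exons of FAU, MIR6751 and MRPL49 cover 10.1% of the exonic bases of SYVN1.

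Per length, folding genes included the most abundant messages of the arm, and 6 of 9 rose, 1 fell and 2 did not pass. Of all tested genes 34.4% rose and 37.2% fell. MANF, a secreted ER chaperone cofactor, had 327 and 333 CPM with GNE987 and 128 and 158 CPM untreated (1.21 ± 0.15, adjusted p = 0.00191). CRELD2, a secreted ER stress protein, had 224 and 243 CPM against 86.0 and 120.4 CPM (1.18 ± 0.19, adjusted p = 0.00395). HYOU1, a large ER chaperone of the Hsp70 family, had 487 and 491 CPM against 241 and 289 CPM (0.88 ± 0.15, adjusted p = 0.0041). In these 3 genes every treated library exceeded every untreated one. PDIA3, the disulfide isomerase that works with calnexin and calreticulin, had 397 and 414 CPM against 222 and 255 CPM (0.77 ± 0.14, adjusted p = 0.00515). Exons of other genes cover 18.9% of its exonic bases. CANX, the lectin chaperone calnexin, had 821 and 826 CPM against 507 and 550.5 CPM (0.64 ± 0.13, adjusted p = 0.00781). PDIA4, another disulfide isomerase, had 454 and 491 CPM against 293 and 343 CPM (0.57 ± 0.14, adjusted p = 0.0162). These rises were smaller, again without overlap between groups, a trait whose share over all tested genes is not given. Without GNE987 replicate 1 the adjusted p was 0.0594 for PDIA3, 0.103 for PDIA4, 0.0843 for CANX and 0.0518 for HYOU1. Without GNE987 replicate 2 it was 0.0708, 0.154, 0.0884 and 0.0537 in the same order, so none of these 4 passed in either case. With library size alone PDIA4 and CANX did not pass (adjusted p = 0.207 and 0.086), nor did PDIA4 with no filter (0.0532).

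SDF2L1, a stress-induced cofactor of the chaperone BiP (chromosome 22, 21642261 to 21644298), was the exception in the arm. It had 61.3 and 66.4 CPM with GNE987 and 125 and 117 CPM untreated. Both treated libraries were well below both untreated ones, and the fall of -0.92 ± 0.12 (adjusted p = 0.00189) kept its call under all 12 alternatives. Its window holds an ERSE-II, as do those of HYOU1 and HERPUD1, which rose. CALR, the lectin chaperone calreticulin, had 1525 and 1640.0 CPM with GNE987 and 1966 and 1922 CPM untreated (-0.30 ± 0.13, adjusted p = 0.0932). Per length it was the most abundant member of its arm, at a mean of 707 FPKM untreated and 576 FPKM with GNE987. CALR passed as lower when untreated replicate 1 (adjusted p = 0.00102) or untreated replicate 2 (0.00284) was left out, with library size alone (0.00228) and with no filter (0.0373). PDIA6, a disulfide isomerase, had 229 and 241 CPM against 208 CPM in each untreated library (0.18 ± 0.12, adjusted p = 0.222). It passed as higher with upper-quartile scaling (adjusted p = 0.0379) and at a filter of 10 CPM (0.0348). Exons of ATP6V1C2 cover 25.2% of the exonic bases of PDIA6. CALR and PDIA6, like CANX and CRELD2, hold an ERSE, so of the 5 ERSE members 2 rose and 3, with XBP1, did not pass. This is not read as a trait of ERSE members, since 34.4% of all tested genes rose and 37.2% fell.

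Summed over members, the ATF4 arm had 1266 and 1324 FPKM with GNE987 and 674 and 806 FPKM untreated. ATF4 itself made up more of it than any other member. The XBP1/ATF6 arm had 1403 and 1482 FPKM against 1299 and 1302 FPKM, with the lower level of CALR set against rises elsewhere. Scaling moved both arms with all genes. With library size alone, where 25.8% of all tested genes rose and 45% fell, 7 members of the ATF4 arm rose and 7 fell, and in the XBP1/ATF6 arm 9 rose and 3 fell. With upper-quartile scaling, where 39.4% of tested genes rose and 32.6% fell and the all-gene median was 0.16, the ATF4 arm had 8 rises and 3 falls and the XBP1/ATF6 arm 12 and 1. Without untreated replicate 2, 40.3% of all tested genes rose and 38.6% fell, and the arms had 8 rises and 6 falls, and 11 and 2. Calls were fewer with 1 treated library. Without GNE987 replicate 1, with 13.2% rising and 24.5% falling among all genes, the ATF4 arm had 5 rises and 2 falls and the XBP1/ATF6 arm 6 and 1. Without GNE987 replicate 2, with 13.1% and 24.7%, the counts were 4 and 3, and 7 and 1. Under each of these settings falls made up a larger share of the calls in the ATF4 arm than in the XBP1/ATF6 arm.

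**Figure D4:**
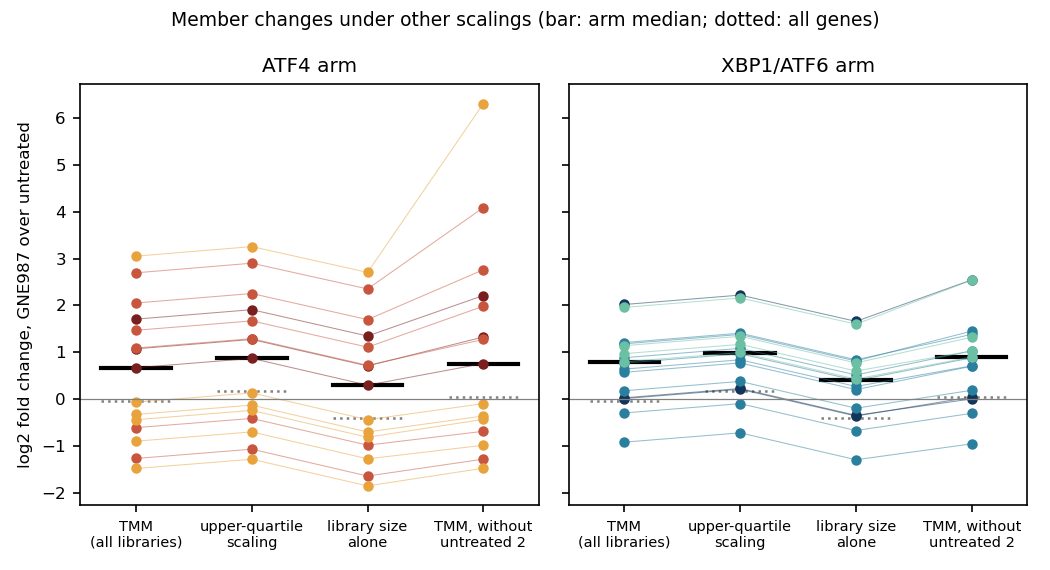
Log2 fold changes of the tested members under 4 settings, the ATF4 arm on the left and the XBP1/ATF6 arm on the right. Each line is a gene, coloured by role as in the plot of log2 fold changes; black bars are arm medians and dotted bars the median of all tested genes. Library size alone lowered every member and the all-gene median (-0.41) together, and without untreated replicate 2 the top line, ASNS, reached 6.31 on 2 untreated counts.

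Genes upstream of ATF4 were also read. Of 16 tested genes for the other eIF2 kinases, eIF2 subunits, its exchange factor eIF2B and related sensors, 3 rose and 11 fell, with a median of -0.85. These are shares of 18.8% and 68.8%, beside 34.4% and 37.2% of all tested genes. PPP1R15B, the constitutive counterpart of PPP1R15A in dephosphorylating eIF2, went from 91.1 ± 23.2 to 267 ± 10.7 CPM (SD, n = 2; 1.55 ± 0.20 SE, adjusted p = 0.00206). EIF2AK3, the ER stress kinase PERK, went from 10.4 ± 0.0673 to 15.5 ± 0.575 CPM (0.58 ± 0.15, adjusted p = 0.0193). EIF2B4, the delta subunit of the exchange factor, went from 48.4 ± 6.42 to 76.2 ± 0.624 CPM (0.65 ± 0.13, adjusted p = 0.00812). Other parts of the same machinery went down. EIF2B5, the catalytic epsilon subunit, fell from 103 ± 15.2 to 7.54 ± 1.23 CPM (-3.76 ± 0.19, adjusted p = 0.000295). EIF2B3, the gamma subunit, fell from 44.8 ± 5.86 to 9.46 ± 0.563 CPM (-2.25 ± 0.16, adjusted p = 0.000372). EIF2S3, the gamma subunit of eIF2, fell from 205 ± 22.0 to 56.8 ± 0.324 CPM (-1.85 ± 0.13, adjusted p = 0.000396). Subunits of 1 complex, eIF2B, thus moved in opposite directions in the same libraries. The calls of EIF2AK3 and EIF2B4 were lost without GNE987 replicate 1 (adjusted p = 0.127 and 0.0821), without GNE987 replicate 2 (0.0997 and 0.0791) and with library size alone (0.375 and 0.105). EIF2AK3 also did not pass with no filter (0.0829) or in DESeq2 (0.0566).

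Among 37 other tested partners and targets of ATF4, 11 rose and 19 fell (median -0.48), shares of 29.7% and 51.4% beside 34.4% and 37.2% of all genes. ATF3, a stress factor, went from 16.7 ± 11.8 to 97.2 ± 3.86 CPM (2.55 ± 0.49, adjusted p = 0.00682). Its untreated libraries had 8.35 and 25.0 CPM, and the change was 3.55 without untreated replicate 2 and 1.89 without untreated replicate 1. CLIC4, a chloride channel protein, went from 35.2 ± 10.7 to 129 ± 0.139 CPM (1.88 ± 0.22, adjusted p = 0.0016). SLC7A11, the cystine importer, went from 8.23 ± 3.45 to 50.6 ± 2.26 CPM (2.62 ± 0.30, adjusted p = 0.00136). Genes were named only if their groups did not overlap, so that separation was fixed by the rule. EIF4EBP1, a repressor of cap-dependent translation, fell from 59.9 ± 9.41 to 4.84 ± 0.533 CPM (-3.63 ± 0.19, adjusted p = 0.000295). PYCR1, the last enzyme of mitochondrial proline synthesis, fell from 171 ± 15.8 to 17.7 ± 0.7 CPM (-3.28 ± 0.14, adjusted p = 0.000292). MTHFD1, the cytosolic folate enzyme, fell from 178 ± 32.2 to 23.1 ± 2.54 CPM (-2.94 ± 0.18, adjusted p = 0.000316). The genes named are the largest rises and falls of the list above a mean level of 10 CPM with no overlap between groups.

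Among 68 other tested ER sensors, chaperones and secretory genes, 23 rose and 30 fell (median -0.27), shares of 33.8% and 44.1% beside 34.4% and 37.2% of all genes. With upper-quartile scaling 28 rose and 27 fell, and at a filter of 10 CPM 28 and 26. WFS1, an ER membrane protein, went from 38.9 ± 12.6 to 128 ± 10.6 CPM (1.72 ± 0.24, adjusted p = 0.00252). DNAJC3, a cochaperone of BiP and inhibitor of eIF2 kinases, went from 25.7 ± 5.09 to 72.3 ± 4.6 CPM (1.49 ± 0.17, adjusted p = 0.00142). Both treated libraries exceeded both untreated ones in these genes, which the rule for naming them required. SRPRB, a subunit of the signal recognition particle receptor, fell from 99.0 ± 12.0 to 10.9 ± 0.274 CPM (-3.18 ± 0.15, adjusted p = 0.000292). UBE2J1, a ubiquitin-conjugating enzyme of ER degradation, fell from 43.6 ± 7.94 to 5.89 ± 0.898 CPM (-2.89 ± 0.20, adjusted p = 0.000379). SPCS2, a signal peptidase subunit, fell from 83.0 ± 10.4 to 13.8 ± 0.527 CPM (-2.58 ± 0.14, adjusted p = 0.000297). UBE2J1 thus fell, whereas the 4 ER degradation genes among the members rose. Further ER degradation genes of this list moved both ways.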

How the data were processed

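Members and gene lists were chosen with earlier results of these data known. RNA was extracted with TRIzol and made into libraries with a kit that does not keep strand, per the labels' protocols. HISAT2 2.2.0 and hg38 appear in the submitters' processing notes; which counter, annotation and strand setting the authors used is, for this table, not given in the sources used here. Values deposited by the authors were raw counts, a normalized signal (count over 1 size factor per library) and FPKM values per gene, plus a log2 fold change and p-values from a test that no source used here names. Only counts were tested. FPKM values as deposited were used to compare levels between genes.

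Genes passing filterByExpr of edgeR 4.0.16 (minimum count 10, minimum total 15; 15910 of 26733) were scaled by TMM and tested by the quasi-likelihood F test in R 4.3.3, for the GNE987 effect (2 residual degrees of freedom). Benjamini-Hochberg adjustment ran over all tested genes, and the threshold was 0.05. The standard error is the log2 fold change divided by the square root of F. The labels do not say that replicates were separate cultures, so p-values measure the spread between these libraries, which may be technical. The fit was also run on simulated counts in which 200 genes were changed. Among 15407 genes passing the filter there, it called 60 of 99 changed 4-fold and 7 of 98 changed 2-fold. In the real libraries 5467 genes rose and 5920 fell. The adjustment is less strict with so many changes, so these shares do not measure power here. Log2 CPM correlated across genes with r = 0.989 in the GNE987 pair and 0.967 in the untreated pair.

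Coordinates and exon overlaps are from GENCODE on GRCh38, and promoters from RefSeq. In 34 of 41 member windows (13 on the minus strand, 21 on the plus strand) the last 20 bases occur in a transcript of the gene in the printed orientation. All members are named, with up to 3 rises and 3 falls per other list (mean of at least 10 CPM, same direction in all 4 pairs of libraries); some items under this rule or in the marker lists are not reported here. Alternatives were RLE, upper-quartile and library-size scaling, no filter, a filter of 10 CPM in 2 libraries, DESeq2 1.42.0, robust estimation, a block for replicate number, and leaving out each library in turn, where a lone library is assumed to vary like the other group.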

Additional observations from a re-analysis of the deposited data

How the results depend on the processing

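Of 587 values for 49 named genes under 12 alternatives, 520 kept direction and call, 44 lost and 11 gained a call, and 12 changed sign. The sign changes were in genes that did not pass with all libraries. PSAT1 stood at 0.025 with RLE scaling, 0.13 with upper-quartile scaling and 0.10 at 10 CPM. XBP1 stood at -0.35 with library size alone and -0.12 with no filter, and ATF6 at -0.36 (called lower) and -0.14; with each library left out in turn XBP1 ranged from -0.046 to 0.064 and ATF6 from -0.080 to 0.044. PDIA6 stood at -0.20 with library size alone. Falls in the ATF4 arm numbered 3 with upper-quartile scaling and at 10 CPM; in the XBP1/ATF6 arm they numbered 3 with library size alone and 2 with no filter. The ATF4 arm median was 0.16 with no filter, which adds ALDH1L2, 0.47 at 10 CPM and 0.30 with library size alone. All tested genes had medians of 0.19, -0.05 and -0.41 in the same order. The XBP1/ATF6 arm median was 0.87 with RLE, 0.98 with upper-quartile and 0.41 with library-size scaling, 0.64 with no filter and 0.95 at 10 CPM. With library size alone rises in the eIF2, ATF4 target and ER lists numbered 1, 7 and 14. The cause was not tested.

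Leaving out each library in turn, all calls ranged from 6306 to 13341, ATF4 arm rises from 4 to 8 and falls from 2 to 6, and XBP1/ATF6 arm rises from 6 to 11, falls from 1 to 2 and median from 0.63 to 0.89. Rises ranged from 1 to 4 in the eIF2 list, 6 to 12 among ATF4 targets and 9 to 28 among ER genes. The labels do not say whether libraries of the same replicate number are pairs. Deviations of same-numbered libraries from their group means correlated at -0.00595, which with only 2 pairs cannot decide this. With the number as a block 9801 genes were called against 11387. ATF4 arm falls then numbered 3, without PHGDH (adjusted p = 0.0511) and VLDLR (0.0595). ALDH1L2 was left untested at 0 to 4 counts, and ASNS had 2 counts in untreated replicate 1.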

Other observations

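The ER stress elements found in the members' promoters occur in few other genes. ERSE or ERSE-II lay in a RefSeq window of 44 genes, 31 of which were tested; 15 rose, 11 fell and 5 did not pass, beside 34.4% and 37.2% of all genes. Of the 23 that are not members, 11 rose and 10 fell, with a median log2 fold change of -0.11. HSP90B1, the ER chaperone GRP94, had 1339 and 1321 CPM with GNE987 and 392 and 572 CPM untreated (1.46 ± 0.21, adjusted p = 0.00281). HSPA5, the chaperone BiP that holds the ER sensors inactive, had 1137 and 1154 CPM against 623 and 718 CPM (0.77 ± 0.14, adjusted p = 0.00556). FICD, which modifies BiP, rose by 1.73 ± 0.25 (adjusted p = 0.00298). EIF2A, a translation initiation factor separate from the eIF2 complex, changed by -3.55 ± 0.20 (adjusted p = 0.000295). FICD and EIF2A were chosen after their values were seen.

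CRELD2 and ALG12, a mannosyltransferase of the ER, begin in opposite directions on chromosome 22, with first exons that overlap. CRELD2 runs from 49918167 to 49927540 on the plus strand and ALG12 from 49900229 to 49918458 on the minus strand. A window of each holds an ERSE or ERSE-II, and whether these are the same bases was not checked. CRELD2 rose by 1.18 ± 0.19, as given above. ALG12 had 10.8 and 8.99 CPM with GNE987 and 23.5 and 21.6 CPM untreated, a fall of -1.18 ± 0.16 (adjusted p = 0.00252). The pair was chosen after its values were seen. The authors' deposited table had 18 members higher and 5 lower at an adjusted p under 0.05, each tested member in the same direction as here. In the DESeq2 alternative 25.2% of 18958 tested genes rose and 27.8% fell. The share over all genes of the deposited table is not given. ASNS and VLDLR did not pass there, at 0.0921 and 0.102. Its log2 fold changes for ATF4 (1.077), ATF5 (1.714) and TRIB3 (-1.269) equalled those of the DESeq2 alternative. The deposited values are therefore not a separate check.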
